A study of Mus musculus with 4 samples.

Results

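The comparison described here set embryonic kidney that had been grown as a transplant against kidney of embryonic day 17.5 (E17.5), using the mouse libraries of the series that share a C57BL/6 background. All barcodes with at least 500 detected genes and at most 20% of their unique molecular identifiers (UMIs) from mitochondrial genes were taken, which gave 6618 cells of the transplant and 4563 cells of E17.5, 11181 of the 22838 cells kept in all 4 libraries. The E17.5 library came from wild-type C57BL/6 kidney. The transplant library came from wild-type C57BL/6N kidneys taken at E12.5 and held for 12 days in epididymal fat of host mice. The labels name the host strain C57BL/6N, whereas the series description speaks of immunodeficient NOD hosts, and this difference was not resolved here. The other libraries, wild-type ICR kidney of E15.5 and of the day of birth (P0), are quoted only to place a value. The P0 library held 7975 UMIs of the reporter tdTomato and the other 3 libraries 0, although all 4 are labelled wild type. Each group was 1 library, so there is no replicate check and no test between groups, and every interval below is a 95% interval for counting error only.

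The embryonic kidney grows by a cycle in which nephron progenitors at the outer rim renew themselves, aggregate next to the tips of the branching ureteric tree and turn into nephrons. In the mouse the progenitors are used up shortly after birth. A kidney rudiment placed in a host is known to be vascularised, to keep forming glomeruli and tubules, and to have no outlet for its urine. The transplant had the longer developmental time of the pair, and it also differed from E17.5 in site and host, which cannot be told apart from time here.

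Cells were assigned to classes by 8 marker genes per class. A cell took the class with the most markers carrying at least 1 UMI, if that class had at least 3 markers and led every other class by at least 2. This placed 3209 cells of E17.5 (70.3%) and 4448 cells of the transplant (67.2%). Class names carry "-like" because they rest on these markers alone. In every class compared, more of the class's own markers than of any other class's markers stood among its 10 leading genes. The gate used these same markers, so this is no independent check of the class names. Median UMIs per kept cell were 7261 at E17.5 and 6269.5 in the transplant, and 193 and 1370 cells fell below 2000 UMIs. Barcodes shared by the libraries numbered 51.

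The libraries differed in RNA of the Y chromosome. Ddx3y, Eif2s3y and Uty, genes of the Y chromosome, had UMIs in 2639, 2276 and 1131 cells of the transplant and in 0 cells of E17.5, where Kdm5d had a UMI in 1 cell. Within the transplant, cells with a Y-linked UMI made up 70.7% of proximal tubule-like, 70.8% of endothelium-like, 44.3% of macrophage-like and 57.4% of lymphoid-like cells. With each cell thinned to 2000 UMIs the shares were 21.3%, 34.1%, 28.1% and 41.3% in that order, so their ranking changed with depth. By this Y-linked RNA the sex of the animals moved with the group and cannot be told apart from transplantation. Which cells of the transplant came from the host was not tested. Of 3 genes known to differ between C57BL/6 substrains, Entpd4 had 0 UMIs in every compared class of both libraries. Nnt, a mitochondrial transhydrogenase, stood in proximal tubule-like cells at 52.1 CPM at E17.5 and 45 CPM in the transplant. Wdfy1 stood there at 35.8 CPM at E17.5 and 16.9 CPM in the transplant, 2.11-fold lower (interval 1.78 to 2.51).

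Several transcripts of tubular genes were met more often outside the tubules in the transplant than at E17.5. Free RNA itself was not measured, so their values are given only as a background for tubular genes in other classes. S100g, a calcium-binding protein of distal and collecting epithelium, had a UMI in 55.7% of stroma-like cells of the transplant and 18.6% of those of E17.5. With each cell thinned to 2000 UMIs the shares were 28.5% and 8.78%. Umod, which encodes uromodulin of the loop of Henle, stood in stroma-like cells at 7.61 CPM (UMIs scaled to the depth of the class) in the transplant and 1.11 CPM at E17.5, against 1221 and 249 CPM in loop of Henle-like cells. Gpx3, a glutathione peroxidase of proximal tubule, went the other way in podocyte-like cells, with a UMI in 40% of those of the transplant (22.9% thinned) and 49.6% of those of E17.5 (34.7% thinned). Low values of tubular genes in other classes are therefore given with this background in view. The share of UMIs from genes induced by tissue dissociation was 1.08% in the transplant and 1.10% at E17.5, and that of globin genes 0.175% and 0.00498%.

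The transplant held no nephron progenitor-like cell. This class, marked by genes of the self-renewing cap mesenchyme, made up 524 cells or 11.5% of E17.5 (10.6 to 12.4%). It held 0 of 6618 cells of the transplant, where the exact interval allows a share of up to 0.0557%. Early nephron-like cells, the stage between progenitor and segment, numbered 241 at E17.5 (5.28%) and 5 in the transplant (0.0756%), a share 69.9-fold lower (29.5 to 217). Both were present in the P0 library, at 7.27% and 7.41%. Over the whole library, without gating, the 8 progenitor markers summed to 379 CPM at E17.5 and 76 CPM in the transplant, and none of them was at 0 in either. Six2, the transcription factor gene that keeps progenitors self-renewing, had 1544 UMIs at E17.5 and 3 in the transplant. Cited1, which marks the least committed progenitors, had 4255 UMIs at E17.5 and 409 in the transplant, whereas Meox1, another of the 8, had 718 UMIs at E17.5 and 1218 in the transplant. With each cell thinned to 2000 UMIs the class held 303 cells of E17.5 and 0 of the transplant.

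Differentiated nephron classes took larger shares of all kept cells in the transplant. These shares and those of the supporting classes depend on each other. The near absence of progenitor-like and early nephron-like cells by itself raises the share of every other class. Shares without those cells were not computed. Podocyte-like cells, the filter cells of the glomerulus, were 5.83% of E17.5 and 11% of the transplant, 1.88-fold higher (1.63 to 2.17). Loop of Henle-like cells were at 4.03% and 7.39%, 1.83-fold higher (1.54 to 2.18). Proximal tubule-like cells were 16.1% and 18.7%. Distal tubule-like cells numbered 7 and 58, where the 58 had a median of 2087.5 UMIs, and acid-secreting intercalated-like cells 11 and 49. Collecting duct-like cells went the other way, with 285 cells (6.25%) at E17.5 and 160 (2.42%) in the transplant, 2.58-fold lower (2.12 to 3.16).

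Of the supporting classes, mural-like cells (smooth muscle, pericytes and renin cells of the vessel wall) were 2.24% and 4.61%, 2.06-fold higher in the transplant (1.64 to 2.61). Endothelium-like cells were at 10.8% and 11.3%, a difference within counting error. Stroma-like cells were at 6.97% and 8.08%. Thinning moved that ratio from 1.16 to 1.93. Macrophage-like cells numbered 34 and 70. Lymphoid-like cells were seen in the transplant alone, 61 against 0 of 4563, where the exact interval allows up to 0.0808% at E17.5. Over the whole libraries the 8 lymphoid markers summed to 6.86 CPM at E17.5, where 5 of them were at 0, and 44.2 CPM in the transplant. The 8 macrophage markers summed to 63 and 178 CPM. Adipocyte-like and epididymis-like cells, the types of the host site, were 0 in both libraries. Over the whole libraries the adipocyte markers summed to 0.369 CPM at E17.5 and 0.656 CPM in the transplant. The epididymis markers summed to 1.99 CPM at E17.5 and 0.39 CPM in the transplant.

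**Figure D1:**
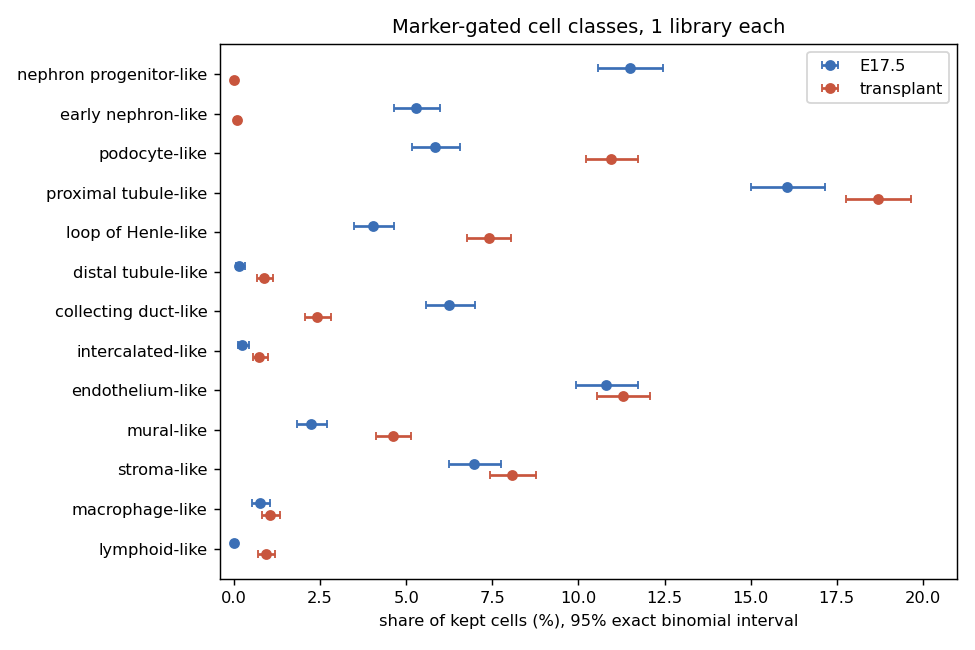
Share of kept cells in each marker-gated class (x axis, percent) for the E17.5 library (blue) and the transplant library (red), with exact 95% binomial intervals for counting error. Progenitor-like and early nephron-like cells stand at or near 0 in the transplant, whereas podocyte-, loop of Henle- and mural-like shares lie to the right of those of E17.5.

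Gene levels were compared in the 7 classes with at least 50 cells in both libraries: podocyte, proximal tubule, loop of Henle, collecting duct, endothelium, mural and stroma. Levels are CPM of the UMIs summed over a class, genes with at least 20 UMIs over both libraries are called measured, and ratios are transplant over E17.5. Genes at least 2-fold higher in the transplant made up 8.14% of those measured in podocyte-like, 13.2% in proximal tubule-like, 11.3% in loop of Henle-like, 12.9% in collecting duct-like, 11.9% in endothelium-like, 10.7% in mural-like and 9.62% in stroma-like cells. Those at least 2-fold lower made up 6.1%, 5.54%, 4.47%, 6.62%, 5.22%, 6.31% and 8.75% in the same order. The median log2 ratio over all measured genes lay between 0.05 and 0.19. Of 7842 genes measured in all 7 classes, 25 were at least 2-fold higher in every class and 24 at least 2-fold lower in every class.

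Podocyte-like cells carried their defining genes in both libraries. Nphs1, which encodes the slit diaphragm protein nephrin, stood at 698 CPM at E17.5 and 978 CPM in the transplant, and the transcription factor gene Wt1 at 1892 CPM at E17.5 and 2434 CPM in the transplant. Of 20 measured genes of podocyte maturation, 1 was at least 2-fold higher and 0 at least 2-fold lower, with a median log2 ratio of -0.01. The higher one, Bcam, a laminin receptor, stood at 604 CPM at E17.5 and 1428 CPM in the transplant, 2.36-fold higher (interval 2.2 to 2.54). Its P0 level was 352 CPM. Vegfa, the growth factor that podocytes supply to glomerular capillaries, stood at 633 CPM at E17.5 and 411 CPM in the transplant, 1.54-fold lower (interval 1.42 to 1.67).

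The collagen IV chains of the mature glomerular basement membrane were higher. Col4a3 stood at 335 CPM at E17.5 and 740.3 CPM in the transplant, 2.21-fold higher (interval 2.01 to 2.43), against 21 CPM in the E15.5 and 227 CPM in the P0 library. Its partner chain Col4a4 stood at 405 CPM at E17.5 and 574 CPM in the transplant, 1.42-fold higher (interval 1.3 to 1.55). The transplant level of each exceeded all 3 in situ libraries. The list's median over 8 genes was 0.45, and that of 8 embryonic basement membrane genes -0.19. Lamb1, the laminin chain of the early membrane, stood at 108 CPM at E17.5 and 64.6 CPM in the transplant, 1.68-fold lower (interval 1.37 to 2.05). Pax2, a progenitor transcription factor gene, stood at 20.5 CPM at E17.5 and 8.07 CPM in the transplant.

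Genes were ranked by interval among those at least 2-fold above the other gated cells in the library where they were higher. The most different of these in podocyte-like cells were Ackr3, a scavenging chemokine receptor, Rhbdl3 and Ephx1 on the higher side. On the lower side they were Hcn4, Pde10a and Pros1. Ackr3 (ENSMUSG00000044337, chr1:90203980-90216751) stood at 149 CPM at E17.5 and 1066 CPM in the transplant, 7.16-fold higher (interval 6.26 to 8.23). Rhbdl3 rests on 1 UMI at E17.5 and 94 in the transplant, with a ratio interval of 5.91 to 1347. Ephx1, an epoxide hydrolase, stood at 4.63 CPM at E17.5 and 44.4 CPM in the transplant. Hcn4, a pacemaker channel gene, stood at 82 CPM at E17.5 and 6.65 CPM in the transplant, 12.3-fold lower (interval 8.13 to 19.3). Pde10a, a cyclic nucleotide phosphodiesterase, stood at 348 CPM at E17.5 and 50.6 CPM in the transplant, and Pros1, which encodes protein S, at 129.6 CPM at E17.5 and 18.3 CPM in the transplant. In the E15.5 library Pde10a and Pros1 were lower still, at 10.2 and 3.58 CPM, whereas Hcn4 stood there at 22.5 CPM.

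Proximal tubule-like cells showed mixed values for the genes of their own function. Of 26 measured transporters, 7 were at least 2-fold higher and 4 at least 2-fold lower, with a median log2 ratio of 0.13. Slc5a2, the main glucose transporter SGLT2, stood at 21.5 CPM at E17.5 and 115 CPM in the transplant, 5.33-fold higher (interval 4.54 to 6.29), against 22.2 CPM in the E15.5 and 11.8 CPM in the P0 library. The sulphate transporter Slc13a1 stood at 25.9 CPM at E17.5 and 189.7 CPM in the transplant, 7.34-fold higher (interval 6.35 to 8.52). Slc6a19, a neutral amino acid transporter, stood at 4.09 CPM at E17.5 and 26.9 CPM in the transplant. These were above every in situ library.

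On the lower side, Slc13a3, a dicarboxylate transporter, stood at 14 CPM at E17.5 and 2.77 CPM in the transplant, 5.05-fold lower (interval 3.53 to 7.32), and the lactate transporter gene Slc5a8 at 202 CPM at E17.5 and 91.9 CPM in the transplant. The endocytic receptor gene Lrp2, one of the class markers, stood at 1011 CPM at E17.5 and 433 CPM in the transplant, and the phosphate transporter gene Slc34a1, another, at 1087 CPM at E17.5 and 2315 CPM in the transplant. Of 26 measured enzymes, 7 were at least 2-fold higher and 6 lower. Miox, which breaks down inositol, stood at 83.8 CPM at E17.5 and 328 CPM in the transplant, 3.92-fold higher (interval 3.61 to 4.26). Kap, an androgen-dependent protein of the tubule, stood at 219 CPM at E17.5 and 889.7 CPM in the transplant. Its level is known to depend on sex, which differs between the libraries. Cyp27b1, which activates vitamin D, stood at 103 CPM at E17.5 and 3.26 CPM in the transplant, 31.6-fold lower (interval 23.9 to 42.6). Its level was 0.418 CPM in the E15.5 and 21.8 CPM in the P0 library. Serpina6, corticosteroid-binding globulin, stood at 161 CPM at E17.5 and 1.35 CPM in the transplant, and Scd2, a fatty acid desaturase, at 981 CPM at E17.5 and 12.3 CPM in the transplant, 79.7-fold lower (interval 69.2 to 92.2). Serpina6 stood at 0.139 CPM in the E15.5 and 56.3 CPM in the P0 library. The transplant levels of Cyp27b1 and Serpina6 thus lay within the range of the in situ libraries, and that of Scd2 below it.

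**Figure D2:**
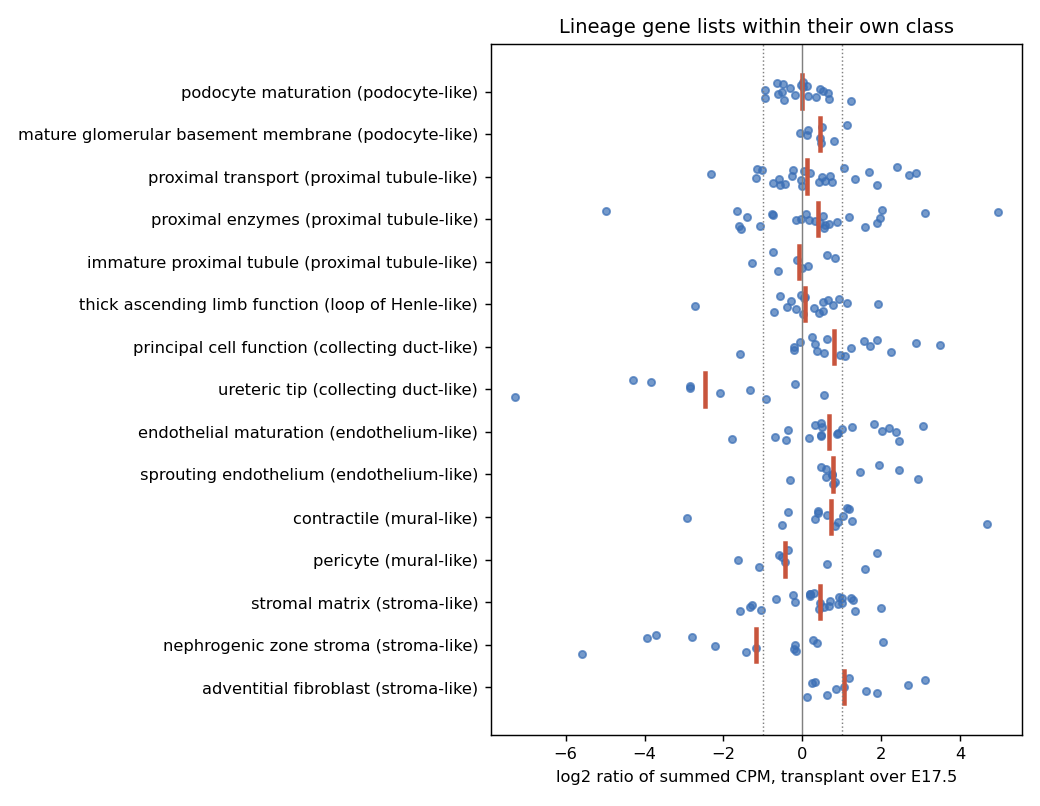
Log2 ratio of transplant over E17.5 (x axis) for every measured gene of each lineage list in its own class, 1 point per gene, with the median as a red bar and dotted lines at 2-fold. The ureteric tip and nephrogenic zone stroma lists reach far to the left, whereas principal cell, endothelial maturation and adventitial fibroblast lists lie mostly to the right of 0.

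Genes of tubular injury and repair were higher in proximal tubule-like cells of the transplant. Of 20 measured, 16 were at least 2-fold higher and 0 at least 2-fold lower, with a median log2 ratio of 2.43. Krt20, a keratin of injured tubule, stood at 2.51 CPM at E17.5 and 35 CPM in the transplant, 14-fold higher (interval 8.87 to 23.4). Ccl2, a monocyte attractant, had 1 UMI at E17.5 and 208 in the transplant (0.132 and 12.8 CPM), with a ratio interval of 17.2 to 3852. Krt18 was the exception among the keratins named, at 161 CPM at E17.5 and 99.2 CPM in the transplant. In the other 6 classes the median of the list lay between 0.45 (stroma) and 1.29 (mural). Spp1, the secreted phosphoprotein osteopontin, stood in podocyte-, endothelium- and stroma-like cells of the transplant at 263, 179.6 and 106 CPM against 3817 CPM in proximal tubule-like cells. The part of free RNA in these values was not tested.

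Class I antigen presentation genes were higher by their median in all 7 classes. Class I molecules show peptides of the cell's own proteins to T cells, and class II molecules, with the chaperone encoded by Cd74, are normally restricted to immune cells but can be induced on epithelium. In proximal tubule-like cells 15 of 16 measured class I genes were at least 2-fold higher, with a median log2 ratio of 3.03. In collecting duct-like cells it was 12 of 13 (median 2.34), and in podocyte-like, loop of Henle-like, endothelium-like, mural-like and stroma-like cells the medians were 1.35, 0.85, 1.46, 1.05 and 1.06. None of the 7 classes had a class I gene at least 2-fold lower. Lymphoid and macrophage markers were also higher over the whole transplant library, as given above, and their part in these values was not tested.

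H2-D1, a classical class I heavy chain, stood in proximal tubule-like cells at 35 CPM at E17.5 and 504 CPM in the transplant, 14.4-fold higher (interval 12.7 to 16.3), against 10.5 CPM in the E15.5 and 78.1 CPM in the P0 library. In endothelium-like cells, where it was highest at E17.5, it stood at 294 CPM at E17.5 and 1219 CPM in the transplant, 4.15-fold higher (interval 3.94 to 4.38). H2-K1 stood in collecting duct-like cells at 25.9 CPM at E17.5 and 241 CPM in the transplant, 9.3-fold higher (interval 7.26 to 12.1). Psmb8, an immunoproteasome subunit, stood in proximal tubule-like cells at 0.66 CPM at E17.5 and 29 CPM in the transplant, 44-fold higher (interval 18.7 to 136). In mural-like and stroma-like cells the transplant level of H2-K1, 39.7 and 18.3 CPM, lay below that of P0, 46.2 and 24 CPM. Reads shared between class I family members may have been split differently by gene, which the sources used here do not describe.

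In all, 10 of 10 measured class II genes were at least 2-fold higher in proximal tubule-like cells (median 2.59). So were all 6 measured in podocyte-like (median 3.97), all 6 in endothelium-like (4.18) and all 5 in stroma-like cells (2.87). In mural-like cells all 3 measured were, with a median of 4.51, or 2.42 with genes at 0 set at their floor. In loop of Henle-like cells 4 of 7 were at least 2-fold higher, with none at least 2-fold lower. In collecting duct-like cells 2 of 5 were, and 1 was at least 2-fold lower, H2-DMb2, a chain of the class II loading factor, at 13 CPM at E17.5 and 4.71 CPM in the transplant. In proximal tubule-like cells Cd74 had 79 UMIs at E17.5 and 20067 in the transplant, 10.4 and 1236 CPM, 119-fold higher (interval 95.1 to 149.8). It had a UMI in 69% of these cells in the transplant (42.1% thinned) and 7.91% at E17.5 (3.06% thinned). In stroma-like and mural-like cells of the transplant the thinned shares were 7.59% and 7.5%, and in lymphoid-like cells 8.7%. Macrophage-like cells of the transplant carried it at 19342 CPM, and the part of free RNA in the lower levels outside the proximal tubule, between 25.6 CPM (loop of Henle) and 141 CPM (podocyte), was not tested. H2-Aa stood in proximal tubule-like cells at 2.51 CPM at E17.5 and 246 CPM in the transplant, 98.2-fold higher (interval 62.8 to 163), and H2-Eb1 at 11.3 CPM at E17.5 and 239 CPM in the transplant. Ubd, a ubiquitin-like modifier induced by inflammatory cytokines, had 0 UMIs in these cells at E17.5 and 1325 in the transplant (81.6 CPM), at least 206-fold higher against a floor of 3 UMIs over the class.

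**Figure D3:**
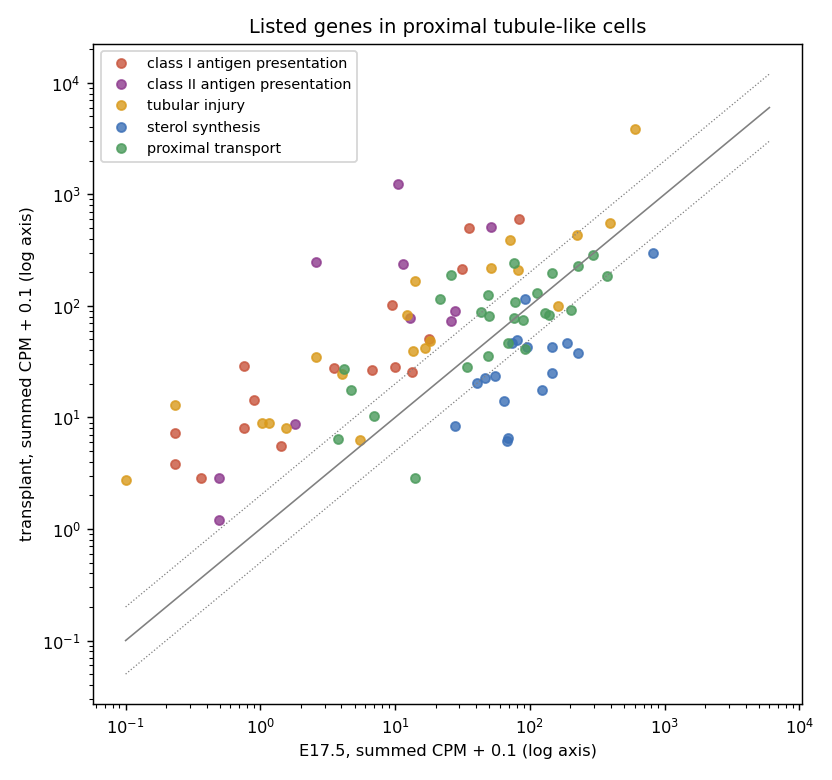
Level of each listed gene in proximal tubule-like cells at E17.5 (x axis) and in the transplant (y axis), both as summed CPM plus 0.1 on log axes, with the line of equality and dotted lines at 2-fold. Class I and class II genes lie above the upper dotted line almost without exception, sterol synthesis genes mostly below the lower one, and transporters on both sides of equality.

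Interferon-stimulated genes differed by class. Their median log2 ratio was 1.55 in proximal tubule-like cells (20 of 29 at least 2-fold higher, 2 lower), 1.496 in collecting duct-like, 0.998 in podocyte-like and 0.77 in loop of Henle-like cells. In endothelium-, mural- and stroma-like cells it was -0.21, -0.65 and 0.17. The differences between classes were not tested. In collecting duct-like cells thinned to 2000 UMIs only 3 of the 19 genes were still measured, with a median of -0.34, and in stroma-like cells the thinned median was -0.54. Summed over the list, endothelium-like cells had the highest level of the 7 classes in both libraries, 2976 CPM at E17.5 and 2230.4 CPM in the transplant.

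Gbp2, a guanylate-binding protein induced by interferon gamma, had 0 UMIs in proximal tubule-like cells at E17.5 and 261 in the transplant (16.1 CPM), at least 40.6-fold higher. Cxcl10, a T cell attractant, stood at 14 CPM at E17.5 and 168 CPM in the transplant, 12-fold higher (interval 9.87 to 14.7), with 105 CPM at P0. Irgm1, an interferon-induced GTPase, stood in collecting duct-like cells at 3.6 CPM at E17.5 and 29.5 CPM in the transplant, 8.2-fold higher (interval 4.2 to 17.9). Ifit3, an antiviral gene known for its response to type I interferon, was on the other side in proximal tubule-like cells, at 11.1 CPM at E17.5 and 2.09 CPM in the transplant, 5.29-fold lower (interval 3.52 to 8.14). In endothelium-like cells Irf1 stood at 88.3 CPM at E17.5 and 32.3 CPM in the transplant, 2.73-fold lower (interval 2.32 to 3.22).

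Upstream stretches are printed below, to show that the same letters stand before genes given above as higher and before Ifit3, given as lower. Gbp2, Cxcl10 and Ifit3 were described in proximal tubule-like cells and Irgm1 in collecting duct-like cells. Gbp3, of the interferon-stimulated list, and B2m, the class I light chain, are printed without a level. The letters searched were GAAA followed after any 2 bases by GAAA, the core of the interferon-stimulated response element, on both strands in the 250 bases before each RefSeq start (GRCm38.p6). They stood in 16 of the 28 interferon-stimulated genes matched (57.1%), in 3 of 15 class I genes (20%) and in 936 of 27025 genes in all (3.46%). Capitals mark the match, which on the opposite strand reads as its reverse complement, and each line runs 5′ to 3′ along the gene's strand. A match is a description of these letters only.
Gbp2, chr3:142620589-142620628, plus strand: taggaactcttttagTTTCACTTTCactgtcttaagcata
Gbp3, chr3:142559984-142560023, plus strand: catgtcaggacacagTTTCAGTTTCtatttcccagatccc
Cxcl10, chr5:92349078-92349117, minus strand: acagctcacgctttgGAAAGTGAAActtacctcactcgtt
Irgm1, chr11:48871426-48871465, minus strand: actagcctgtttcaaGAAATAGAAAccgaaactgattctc
Ifit3, chr19:34583358-34583397, plus strand: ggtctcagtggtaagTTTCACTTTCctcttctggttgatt
B2m, chr2:122147533-122147572, plus strand: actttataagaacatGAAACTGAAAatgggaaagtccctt

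Sterol synthesis genes were lower, most of all in proximal tubule-like cells. There 13 of 17 were at least 2-fold lower and none higher, with a median log2 ratio of -1.76. Insig1, which holds back sterol synthesis when sterols are plentiful, stood at 68.9 CPM at E17.5 and 6.4 CPM in the transplant, 10.8-fold lower (interval 8.7 to 13.4), against 29 CPM in the E15.5 and 50.8 CPM in the P0 library. Idi1, an isoprenoid enzyme, stood at 122 CPM at E17.5 and 17.4 CPM in the transplant. The medians were -1.05 in stroma-like, -0.99 in loop of Henle-like, -0.896 in collecting duct-like, -0.602 in podocyte-like, -0.41 in mural-like and -0.17 in endothelium-like cells.

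Loop of Henle-like cells of both libraries carried the genes of salt transport by the thick ascending limb. Of 19 measured, 2 were at least 2-fold higher and 1 lower, with a median of 0.06. Markers of the distal tubule, the next segment, summed in these cells to 370.3 CPM at E17.5 and 2338 CPM in the transplant, and their part in the values below was not tested. Most of the transplant sum came from S100g (133 CPM at E17.5, 1341 CPM in the transplant) and Klk1 (68.2 and 710 CPM). Umod, one of the class markers, stood at 249 CPM at E17.5 and 1221 CPM in the transplant, and the salt transporter gene Slc12a1 at 2336 CPM at E17.5 and 3247 CPM in the transplant. Kng2, a kininogen gene, stood at 214 CPM at E17.5 and 812 CPM in the transplant, 3.79-fold higher (interval 3.4 to 4.23). Esrrb, an orphan nuclear receptor gene, stood at 9.83 CPM at E17.5 and 1.47 CPM in the transplant. Ranking by interval was again among genes at least 2-fold above the other gated cells in the library where they were higher. The leading genes were Oit1, Tspan1 and Olfm4 (higher) and Afp, Fgfbp1 and Slc2a1 (lower). Tspan1, a tetraspanin, stood at 8.6 CPM at E17.5 and 145 CPM in the transplant, 16.8-fold higher (interval 9.98 to 30.9), and Olfm4 at 4.3 CPM at E17.5 and 80.1 CPM in the transplant. Oit1 rests on 1 UMI at E17.5 and 242 in the transplant, with a ratio interval of 10.3 to 2300.2. Afp, the fetal plasma protein alpha-fetoprotein, stood at 247 CPM at E17.5 and 21.3 CPM in the transplant, 11.6-fold lower (interval 9.54 to 14.1), and Fgfbp1, a carrier of fibroblast growth factors, at 47.3 CPM at E17.5 and 7.36 CPM in the transplant.

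Collecting duct-like cells combined higher principal cell genes with lower tip genes. Principal cells reabsorb water and sodium, and the ureteric tip is the branching end of the embryonic duct. Markers of other classes moved with these values within the class, and their part was not tested: distal tubule markers summed to 885 CPM at E17.5 and 5186 CPM in the transplant, intercalated markers to 31 CPM at E17.5 and 343 CPM in the transplant and stroma markers to 45.4 CPM at E17.5 and 282 CPM in the transplant. Of the distal tubule sum, S100g alone made up 836 CPM at E17.5 and 4863 CPM in the transplant. S100g is a gene of collecting epithelium as well, as given above. Of 18 principal cell genes, 8 were at least 2-fold higher and 1 lower (median 0.795). Hsd11b2, which shields the mineralocorticoid receptor from glucocorticoids, stood at 145 CPM at E17.5 and 1066 CPM in the transplant, 7.35-fold higher (interval 6.61 to 8.18), against 108 CPM in the E15.5 and 143 CPM in the P0 library. The ammonia channel gene Rhcg stood at 124 CPM at E17.5 and 588 CPM in the transplant, 4.73-fold higher (interval 4.2 to 5.34), and the potassium channel gene Kcnj1 at 2.16 CPM at E17.5 and 26.1 CPM in the transplant. Aqp2, the vasopressin-regulated water channel and a class marker, stood at 2182 CPM at E17.5 and 2318 CPM in the transplant. Slc14a2, a urea transporter gene, stood at 6.84 CPM at E17.5 and 2.14 CPM in the transplant.

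Of 10 measured tip genes, 0 were at least 2-fold higher and 7 at least 2-fold lower, with a median of -2.47. Ret, the receptor for the branching signal GDNF, had 58 UMIs at E17.5 and 2 in the transplant (20.9 and 0.857 CPM), 24.4-fold lower (interval 6.46 to 206). Spry1, a feedback inhibitor of receptor signalling, stood at 255 CPM at E17.5 and 59.5 CPM in the transplant. With genes of at least 100 UMIs the median was -0.76, and after thinning, which left 4 tip genes measured, it was -0.0057. Outside the lists, Postn, a matricellular protein, stood at 1.44 CPM at E17.5 and 187 CPM in the transplant, 129.9-fold higher (interval 50.4 to 479), in a class whose stroma markers were also higher. Efhd1, a mitochondrial calcium-binding protein, stood at 3.6 CPM at E17.5 and 128 CPM in the transplant, and Oit1 at 3.6 CPM at E17.5 and 128 CPM in the transplant. Egr4, an immediate early gene, had 169 UMIs at E17.5 and 2 in the transplant, with an interval for the lower fold of 19.4 to 592. Ly6h had 76 and 0 UMIs, at least 21.3-fold lower.

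Endothelium-like cells carried higher levels of maturation genes. Of 20 measured, 8 were at least 2-fold higher and 1 lower (median 0.68). Cd300lg, a receptor of capillary and lymphoid vessels, stood at 24.4 CPM at E17.5 and 205 CPM in the transplant, 8.4-fold higher (interval 7.06 to 10.1), against 1.29 CPM in the E15.5 and 27.3 CPM in the P0 library. Ly6c1 stood at 155 CPM at E17.5 and 799 CPM in the transplant, 5.15-fold higher (interval 4.8 to 5.53), and Nostrin, which traffics nitric oxide synthase, at 29.2 CPM at E17.5 and 160.4 CPM in the transplant. Vwf, von Willebrand factor of larger vessels, stood at 20.3 CPM at E17.5 and 5.86 CPM in the transplant, 3.46-fold lower (interval 2.39 to 5.1). The sprouting list was on the same side, with 4 of 12 genes at least 2-fold higher and none lower (median 0.77). Among them Sox18, a vascular transcription factor gene, stood at 41.7 CPM at E17.5 and 319 CPM in the transplant, and Apln, the tip cell ligand apelin, at 22.1 CPM at E17.5 and 85.1 CPM in the transplant.

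Ccl21a, the chemokine of lymphatic vessels that draws in T cells and dendritic cells, had 0 UMIs in endothelium-like cells at E17.5 and 6555 in the transplant (985 CPM), at least 1913-fold higher. Few cells carried it: 3.08% of endothelium-like cells of the transplant had a UMI (1.54% thinned), against 6.73% of stroma-like cells (3.38% thinned). Its level in endothelium-like cells was 275 CPM in the E15.5 and 24 CPM in the P0 library. Near-identical Ccl21 copies may share reads, and how the counting treated them is not given in the sources used here, which bears on the 0 at E17.5. Mmrn1, another lymphatic gene, stood at 4.64 CPM at E17.5 and 17.7 CPM in the transplant. With likely doublets removed its log2 ratio was -0.53 in place of 1.92. Of 7 measured lymphatic genes 5 were at least 2-fold higher (median 1.79). Lyve1, also lymphatic, stood at 10.3 CPM at E17.5 and 5.86 CPM in the transplant. Slc26a10 stood at 2.92 CPM at E17.5 and 76.5 CPM in the transplant, 26.2-fold higher (interval 16.2 to 45.3), and Abcb1a, an efflux pump of barrier capillaries, had 0 and 64 UMIs, at least 18.7-fold higher. Cyp26b1, which degrades retinoic acid, stood at 77.3 CPM at E17.5 and 2.56 CPM in the transplant, 30.2-fold lower (interval 18.7 to 52.4).

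In mural-like cells the contractile list had 5 of 14 genes at least 2-fold higher and 1 lower (median 0.73, and 0.094 over 11 measured genes after thinning), while 9 pericyte genes had a median of -0.44. Myl9, a myosin light chain, stood at 1616 CPM at E17.5 and 3679 CPM in the transplant, 2.28-fold higher (interval 2.13 to 2.44). Tagln, an actin-binding protein of smooth muscle, stood at 888 CPM at E17.5 and 1944 CPM in the transplant. Actg2, the enteric-type smooth muscle actin, stood at 139 CPM at E17.5 and 18.2 CPM in the transplant, 7.64-fold lower (interval 5.06 to 11.8). Among pericyte genes, Abcc9, a potassium channel subunit, stood at 282 CPM at E17.5 and 91 CPM in the transplant, and Rgs4 at 35.6 CPM at E17.5 and 135 CPM in the transplant. Ren1, the renin gene and a class marker, stood at 10634 CPM at E17.5 and 19688 CPM in the transplant. Eln, which encodes elastin of the vessel wall, stood at 126 CPM at E17.5 and 1026 CPM in the transplant, 8.13-fold higher (interval 6.48 to 10.3). Its level was 98.5 CPM in the E15.5 library and already 714 CPM in the P0 library. Angptl4, a lipoprotein lipase inhibitor, and Hopx stood at 14.6 CPM at E17.5 and 133 CPM in the transplant and at 63.1 CPM at E17.5 and 383 CPM in the transplant in that order. Hopx stood at 154 CPM in the E15.5 and 228 CPM in the P0 library. Nts, neurotensin, had 56 UMIs at E17.5 and 1 in the transplant, with an interval for the lower fold of 28.3 to 6600.3.

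Stroma-like cells had lower levels of nephrogenic zone genes and higher levels of adventitial fibroblast genes. Of 13 nephrogenic zone genes, 7 were at least 2-fold lower and 1 higher (median -1.16, and -0.31 after thinning). Gdnf, the ligand of Ret, had 39 UMIs at E17.5 and 1 in the transplant (21.6 and 0.304 CPM), with an interval for the lower fold of 12 to 2877. Ntn1, the guidance cue netrin, stood at 37.7 CPM at E17.5 and 2.74 CPM in the transplant, 13.8-fold lower (interval 6.84 to 31.4). Alx1, a homeobox gene, was the exception at 150.2 CPM at E17.5 and 618 CPM in the transplant, 4.12-fold higher (interval 3.63 to 4.69). Foxd1, the defining gene of the cortical stromal progenitor and a class marker, stood at 97 CPM at E17.5 and 27.4 CPM in the transplant.

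Of 11 adventitial fibroblast genes, 6 were at least 2-fold higher and 0 lower (median 1.05). Dpt, the matrix protein dermatopontin, stood at 8.87 CPM at E17.5 and 79.4 CPM in the transplant, 8.96-fold higher (interval 5.41 to 15.9), and Ly6a at 27.2 CPM at E17.5 and 175 CPM in the transplant, 6.44-fold higher (interval 4.81 to 8.81). The stromal matrix list had 5 of 24 genes higher and 4 lower (median 0.44). Loxl1, an elastin crosslinker, stood at 56.5 CPM at E17.5 and 225 CPM in the transplant, and its relative Lox at 181 CPM at E17.5 and 72.4 CPM in the transplant. Rprm stood at 3.32 CPM at E17.5 and 132 CPM in the transplant, 39.6-fold higher (interval 18.1 to 109), Spon1, an F-spondin matrix protein, at 4.99 CPM at E17.5 and 134 CPM in the transplant, and Angptl4 at 9.97 CPM at E17.5 and 204 CPM in the transplant. On the lower side Nts stood at 166 CPM at E17.5 and 3.04 CPM in the transplant, 54.6-fold lower (interval 29.3 to 115), Igfbp2, a binder of insulin-like growth factors, at 192 CPM at E17.5 and 17 CPM in the transplant, and Wnt11, which acts in branching, at 36 CPM at E17.5 and 2.13 CPM in the transplant.

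Genes of fetal growth, many of them imprinted, were lower by their median in all 7 classes. The list's median log2 ratio ran from -1.06 in loop of Henle-like to -2.73 in stroma-like cells, with 14 of 18 genes at least 2-fold lower in endothelium-like cells. Igf2, the fetal insulin-like growth factor, stood in stroma-like cells at 1312 CPM at E17.5 and 46.6 CPM in the transplant, 28.2-fold lower (interval 23.9 to 33.4), against 997 CPM in the E15.5 and 658 CPM in the P0 library. In endothelium-like cells it stood at 2685 CPM at E17.5 and 179 CPM in the transplant, 15-fold lower (interval 14.1 to 15.9). H19, the noncoding neighbour of Igf2, stood there at 2051 CPM at E17.5 and 54.6 CPM in the transplant, 37.6-fold lower (interval 33.9 to 41.8). Dlk1 stood in mural-like cells at 159 CPM at E17.5 and 2.76 CPM in the transplant, 57.5-fold lower (interval 23.8 to 181). Sox4, a widely expressed developmental gene, was an exception in stroma-like cells at 505 CPM at E17.5 and 754 CPM in the transplant.

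Proliferation genes were lower by their median as well, least in endothelium- and mural-like cells. Of 27 genes, 25 were at least 2-fold lower in stroma-like cells (median -2.45), 22 in loop of Henle-like (-1.77), 21 in proximal tubule-like (-1.796) and 20 in collecting duct-like cells (-2.16). In endothelium-like and mural-like cells 3 and 7 were, with medians of -0.39 and -0.54. After thinning the medians in collecting duct-like and mural-like cells were 0.0037 over 4 and 0.017 over 21 measured genes. Top2a, a topoisomerase of dividing cells, stood in stroma-like cells at 314 CPM at E17.5 and 32.6 CPM in the transplant, 9.65-fold lower (interval 7.84 to 12), and in endothelium-like cells at 343 CPM at E17.5 and 168 CPM in the transplant, 2.03-fold lower (interval 1.89 to 2.19). Among genes lower in all 7 classes were the replication-dependent histones Hist1h2ae, Hist1h2ap and Hist1h1b. Hist1h1b stood in proximal tubule-like cells at 73.2 CPM at E17.5 and 3.14 CPM in the transplant, 23.3-fold lower (interval 17.5 to 31.7). Near-identical histone copies may share reads.

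Glycolysis genes were on the lower side and fatty acid oxidation genes on the higher side in all 7 classes. Glycolysis medians lay between -0.32 (podocyte) and -1.27 (stroma), and fatty acid oxidation medians between 0.41 (loop of Henle) and 0.86 (endothelium). No class had a fatty acid oxidation gene at least 2-fold lower. Oxidative phosphorylation medians lay between -0.21 and 0.403. Eno1, the glycolytic enolase, stood in stroma-like cells at 598 CPM at E17.5 and 105 CPM in the transplant, 5.7-fold lower (interval 5.04 to 6.45). Slc16a3, the lactate exporter, stood in proximal tubule-like cells at 8.58 CPM at E17.5 and 0.246 CPM in the transplant. Cpt1a, the gate of mitochondrial fatty acid import, stood in endothelium-like cells at 5.15 CPM at E17.5 and 35.5 CPM in the transplant, 6.89-fold higher (interval 4.7 to 10.4). In proximal tubule-like cells Ehhadh, a peroxisomal enzyme, stood at 13.9 CPM at E17.5 and 74.1 CPM in the transplant, 5.35-fold higher (interval 4.38 to 6.6).

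The hypoxia response list had medians from -0.91 (stroma) to -0.49 (podocyte). Ankrd37, a target of hypoxia-inducible factor, was lower in all 7 classes. In endothelium-like cells it stood at 78.8 CPM at E17.5 and 1.5 CPM in the transplant, 52.4-fold lower (interval 28.3 to 110.1), against 9.29 CPM in the E15.5 and 54.8 CPM in the P0 library. Slc2a1, the glucose transporter GLUT1, stood in loop of Henle-like cells at 134 CPM at E17.5 and 29.7 CPM in the transplant, 4.52-fold lower (interval 3.72 to 5.5). Genes of the glucocorticoid response had medians between 0.29 and 0.94. Tsc22d3, a direct target of the receptor, stood in endothelium-like cells at 56.7 CPM at E17.5 and 191 CPM in the transplant, 3.37-fold higher (interval 2.98 to 3.82).

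Complement and acute phase genes were higher in proximal tubule-like cells, with 8 of 10 at least 2-fold higher (median 1.43). In mural-like cells 4 of 5 were (median 1.55, or 1.36 with genes at 0 set at their floor). In podocyte-, stroma- and endothelium-like cells it was 5 of 7 (1.25), 3 of 6 (1.15) and 3 of 7 (0.498). In loop of Henle- and collecting duct-like cells it was 1 of 2 and 0 of 1. None of the 7 classes had one at least 2-fold lower. C3, the central complement component, stood in proximal tubule-like cells at 2.11 CPM at E17.5 and 10.04 CPM in the transplant, 4.75-fold higher (interval 2.84 to 8.51). C1s1, a protease of the classical pathway, stood in them at 31.5 CPM at E17.5 and 111 CPM in the transplant. Lists of the ATF4 stress response and of TGF-beta signalling had medians on both sides of 0, from -0.64 (mural) to 0.56 (podocyte) and from -0.47 (collecting duct) to 0.57 (loop of Henle). After thinning, the mural value was 0.30 over 4 measured genes and the loop of Henle value -0.16 over 5. Nupr1, a stress-induced nuclear protein gene of the first, was higher in each of the 7 classes. In endothelium-like cells it stood at 2.23 CPM at E17.5 and 19.1 CPM in the transplant, 8.55-fold higher (interval 4.83 to 16.5), and in proximal tubule-like cells at 1.58 CPM at E17.5 and 25.7 CPM in the transplant, 16.2-fold higher (interval 9.18 to 31.6). Atf4 itself stood in proximal tubule-like cells at 122 CPM at E17.5 and 86.3 CPM in the transplant, 1.42-fold lower (interval 1.3 to 1.54). Bambi, a decoy receptor of the TGF-beta family, stood in stroma-like cells at 48.2 CPM at E17.5 and 485 CPM in the transplant, 10.1-fold higher (interval 8.1 to 12.6), and in proximal tubule-like cells at 86.8 CPM at E17.5 and 34.9 CPM in the transplant, 2.49-fold lower (interval 2.22 to 2.79). Immediate early and heat shock genes, which tissue dissociation induces, had medians from -0.91 (podocyte) to 0.36 (stroma).

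**Figure D4:**
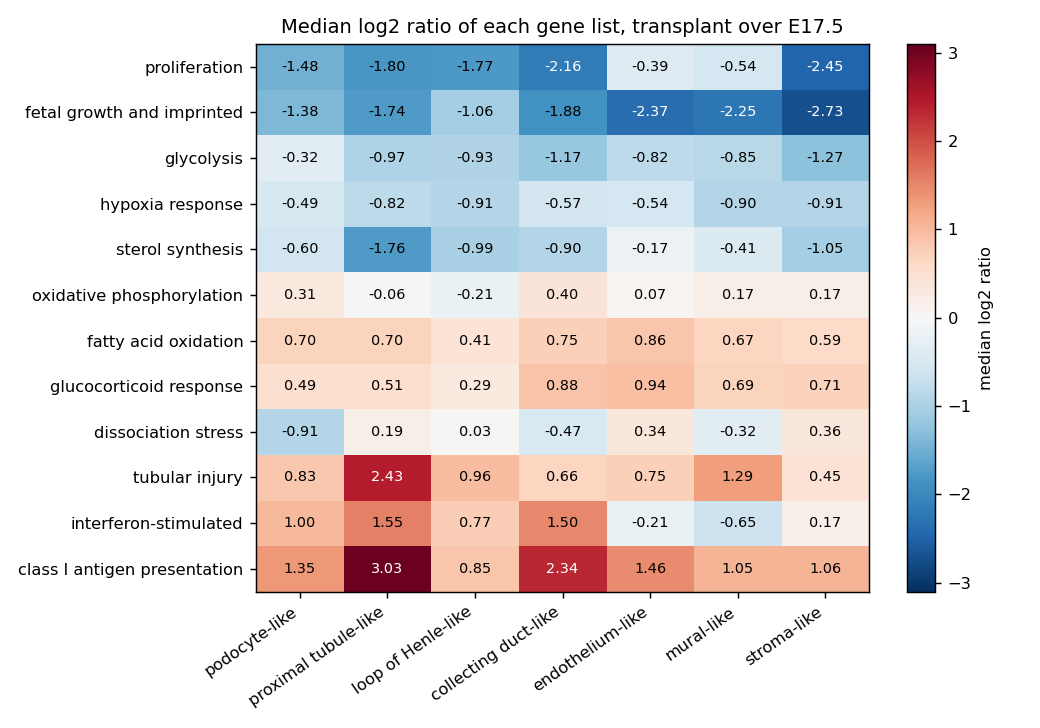
Median log2 ratio of transplant over E17.5 for 12 gene lists (rows) in 7 marker-gated classes (columns), with the value in each cell. Proliferation, fetal growth, glycolysis, hypoxia and sterol lists are negative in all classes, class I genes positive in all, and interferon-stimulated genes positive in epithelial and negative in endothelium- and mural-like cells.

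By the smallest interval bound over the 7 classes, the leading higher genes were Cd74, H2-D1, H2-K1, Serinc3 and Cdh16, and the leading lower ones Igf2, Ankrd37 and the 3 histones. Serinc3, a membrane protein gene, ranged from 3.2-fold higher (interval 2.81 to 3.65) in proximal tubule-like to 8.63-fold higher (interval 7.29 to 10.3) in collecting duct-like cells. Cdh16, the kidney-specific cadherin of tubular epithelium, stood in collecting duct-like cells at 583 CPM at E17.5 and 2125 CPM in the transplant, 3.65-fold higher (interval 3.45 to 3.86). Its levels in endothelium-, mural- and stroma-like cells of the transplant were 57, 92.1 and 41.1 CPM. Several other tubular transcripts were also met more often outside the tubules in the transplant, as given above. Whether free RNA had a part in the Cdh16 levels was not tested.

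**Figure D5:**
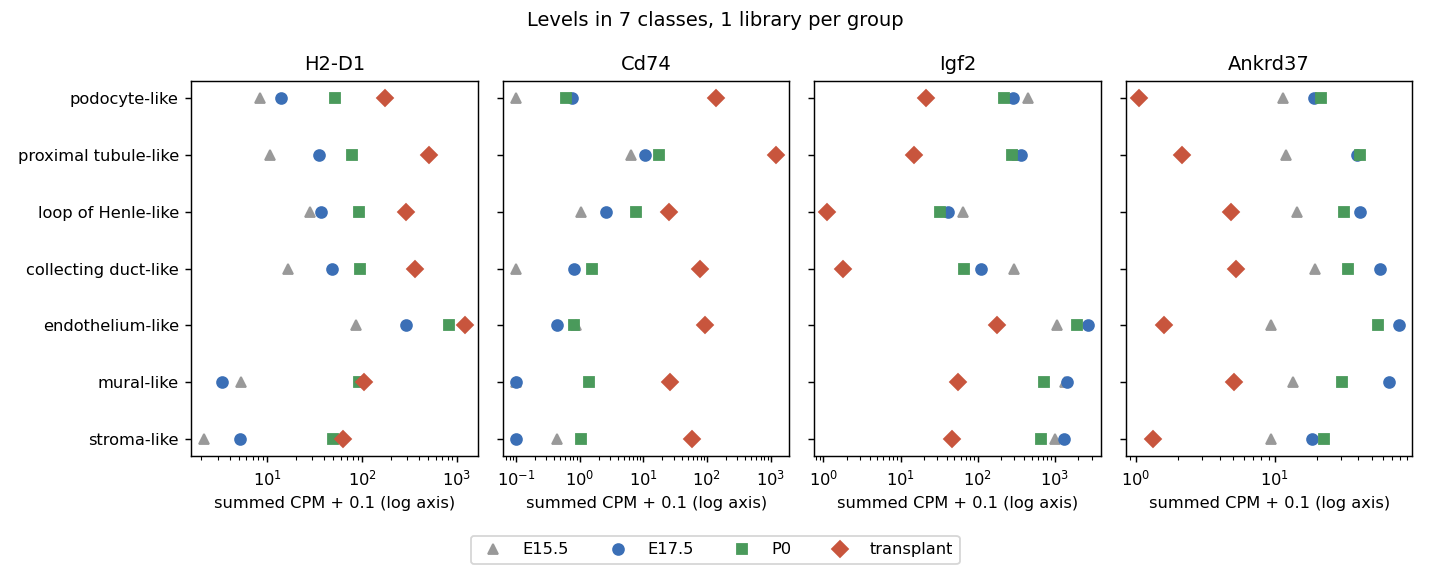
Summed CPM plus 0.1 (x axis, log scale) of H2-D1, Cd74, Igf2 and Ankrd37 in 7 classes (y axis) for the 4 libraries, 1 point each. The transplant stands to the right of all 3 in situ libraries for H2-D1 and Cd74 and to the left of them for Igf2 and Ankrd37 in every class.

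Macrophage-like cells, 70 in the transplant and 34 at E17.5, fell below the 50 cells asked of a compared class and are described only. Here 10% of the measured genes were at least 2-fold higher and 13.6% at least 2-fold lower, with a median log2 ratio of -0.19. H2-Ab1, a class II chain, had 0 UMIs at E17.5 and 2788 in the transplant (5707 CPM), at least 326-fold higher. The class II list had a median of 8.05, or 7.76 with genes at 0 set at their floor. Lyve1, known from fetal-derived tissue macrophages, stood at 128 CPM at E17.5 and 22.5 CPM in the transplant. Their interferon-stimulated genes had a median of -1.34, with 18 of 29 at least 2-fold lower. Isg15, a ubiquitin-like interferon product, stood at 618 CPM at E17.5 and 92.1 CPM in the transplant, 6.71-fold lower (interval 4.69 to 9.73).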

How the data were processed

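Single-cell RNA libraries (10x Genomics 3′ chemistry) of 4 mouse kidney samples were used as the raw UMI counts that the authors deposited, 1 filtered matrix per sample. Counting was done with Cell Ranger 3.1.0 on GRCm38, per the submitters' processing notes. The file headers give 3.1.0 for E17.5 and the transplant and 3.0.2 for E15.5 and P0. The joined matrix of the series was not used.

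Kept cells had at least 500 detected genes and at most 20% mitochondrial UMIs. E17.5 held 42430540 UMIs over all 5551 barcodes, of which 4563 were kept, and the transplant 57855356 over all 7670, of which 6618 were kept. Marker-gated classes were summed to CPM. Ratios carry exact conditional binomial 95% intervals, and shares exact Clopper-Pearson intervals, which cover counting error only. With 1 library a side no test was run. Genes with at least 20 UMIs over both libraries were measured, and a call past 2-fold used a prior of 0.5 counts. A count of 0 was set at a floor of 3 UMIs over the class. Doublets were held back only by the 2-marker lead of the gate, with Scrublet removal as an alternative. The members and the 39 gene lists were chosen with earlier results of these data known. Named genes were the 3 highest and 3 lowest per class by the interval bound nearest 1, with at least 50 UMIs, 5 each way across classes, and up to 3 each way per list. Those named per class also stood at least 2-fold above the other gated cells in the library where the gene was higher. Class markers and mitochondrial, ribosomal protein, globin, sex-linked and reporter genes were left out of the genes named per class and across classes. The contrast was tested on simulated data. List medians and percentages of genes past 2-fold in the 7 classes were computed again under 11 other settings of the filters, gate, depth and scaling. A further setting was chosen after seeing the data (a lead of 1 marker). The sex-linked, substrain and lymphatic lists, and lists with too few measured genes, were left out. Named gene ratios were not recomputed under other UMI minima, and shares of cells only under other filters, gates or depth. Python 3.11.15, numpy 2.4.6, scipy 1.17.1, pandas 2.3.3 and scanpy 1.11.5 were used, and promoter windows came from RefSeq GRCm38.p6. Some genes of the lists are not reported here by name, and counts and medians are over all measured genes of a list.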

Additional observations from a re-analysis of the deposited data

Results flagged for a closer look

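The interferon-stimulated list lay on opposite sides in 2 classes of the same comparison. Its median log2 ratio of transplant over E17.5 was 1.55 in proximal tubule-like cells and -0.65 in mural-like cells. The difference between the classes was not tested, since each group was 1 library.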

How the results depend on the processing

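Of 493 named gene ratios past 2-fold, 491 kept their sign in every alternative in which they were measured, as did 78 of 83 list medians of at least 0.5 in size. Depth was the main limit: thinning each cell to 2000 UMIs left 147 named genes under the 20-UMI minimum and moved most of the values below, and beyond the smaller number of genes measured the cause was not tested. No paired analysis was possible because each group was 1 library. Signs reversed after thinning for Ube2c in mural-like cells (-1.19 to 0.084), the ATF4 stress list in mural-like cells (-0.64 to 0.30 over 4 genes), the TGF-beta response list in loop of Henle-like cells (0.57 to -0.16 over 5), the interferon-stimulated list in collecting duct-like cells (1.5 to -0.34 over 3), and the proliferation list in collecting duct-like (-2.16 to 0.0037 over 4) and mural-like cells (-0.54 to 0.017 over 21). Mmrn1 in endothelium-like cells reversed with Scrublet doublets removed (1.92 to -0.53).

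Thinning also moved the medians of the contractile list (0.73 to 0.094), principal cell list (0.80 to 0.41), nephrogenic zone stroma (-1.16 to -0.31), proximal enzymes (0.39 to 0.25), stromal matrix (0.44 to 0.28) and ureteric tip (-2.47 to -0.0057). A minimum of 100 UMIs gave -0.20 for nephrogenic zone stroma and -0.76 for the ureteric tip, and Scrublet removal gave -0.69 for the former. Scaling by the median ratio gave 0.60 for principal cell genes, 0.25 for proximal enzymes and -0.012 for proximal transport. At most 10% mitochondrial UMIs gave 0.47 for proximal enzymes, 0.27 for proximal transport (0.13 in the report) and 0.36 for the thick ascending limb (0.06 in the report), which a lead of 1 marker put at 0.48. Leaving out mitochondrial, ribosomal and globin genes gave 0.53 for endothelial maturation (0.68), and a mean over cells 0.66 for the mature basement membrane (0.45).

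With at least 100 UMIs, genes at least 2-fold higher were 7.88% in endothelium-like, 6.98% in mural-like and 5.18% in podocyte-like cells, and those lower 2.33% in loop of Henle-like, 3.43% in mural-like and 3.46% in podocyte-like cells. With at least 5 UMIs, 6.94% were lower in loop of Henle-like cells. Share ratios after thinning were 0.52 for collecting duct-like (0.39 in full), 1.26 for endothelium-like (1.04), 1.30 for proximal tubule-like (1.16) and 1.93 for stroma-like cells (1.16). A lead of 1 marker gave 0.49 for collecting duct-like cells, at least 1000 detected genes 1.22 for endothelium-like and 1.34 for stroma-like cells, 1 marker more 1.44 for stroma-like cells, and at most 10% mitochondrial UMIs 1.28 for proximal tubule-like cells.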
